A study of Mus musculus with 14 samples.

Results

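The genes described here are 37 transcripts of the early response to stimulation and of the heat-shock response, chosen by name from a table of UMI counts over 21205 genes in single dendritic cells of mouse melanoma. Of them, 25 are immediate-early or early response genes and 12 are heat-shock genes, and all 37 were in the table. Cells labelled as type 1 conventional dendritic cells (cDC1) came from YUMM1.7 melanomas, a mouse melanoma line, grown under the skin of female mice, and each of 14 plates held cells of 1 tumour of 1 mouse. The plates were Irf1_dXCR1 (5 plates, 223 cells), Irf1_FF (4 plates, 165 cells), Ikbkb_dXCR1 (4 plates, 133 cells) and Ikbkb_FF (1 plate, 34 cells). IRF1 is a transcription factor of interferon responses, and Ikbkb codes for IKKβ, a kinase that activates NF-κB. The labels give genotypes as these names alone, which are read here as floxed alleles (FF) and their deletion in cells that express Xcr1 (dXCR1). Whether a given sorted cell carried the deletion was not measured. All Irf1 plates belong to experiment M3 and all Ikbkb plates to experiment M2, so the targeted gene and the experiment cannot be told apart. Irf1_dXCR1 and Irf1_FF mice were 6 weeks old, Ikbkb_dXCR1 mice 8 weeks (replicates 1 and 2) or 6 weeks (replicates 3 and 4), and the Ikbkb_FF mouse 8 weeks.

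Immediate-early genes are switched on within minutes of a stimulus, without new protein synthesis, by kinases that act on factors already bound at their promoters. Their products include the AP-1 factors of the Fos and Jun families, which dimerise on DNA, EGR zinc-finger factors, NR4A orphan nuclear receptors, and brakes such as the DUSP phosphatases of MAP kinases and ZFP36, which promotes decay of cytokine mRNAs. Heat-shock genes encode chaperones that hold, fold or refold proteins, and the inducible ones are driven by the factor HSF1. Both programmes respond to cell activation and to enzymatic dissociation of tissue. Per the labels' protocols, every tumour went through collagenase digestion at 37 °C before sorting, a step that all groups share.

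The 250 bases before the annotated start are shown for Klf6, Fos, Hspa1a and Hspa1b. Klf6 was the one member called by edgeR at the main settings, and Fos lay on the other side in the same cells. Hspa1a and Hspa1b are neighbouring genes with nearly identical windows. The windows are RefSeq sequences of GRCm38.p6, 5′ to 3′ on the gene's strand. Capitals mark a TATAAA box in Fos and a GAANNTTC heat-shock element core in both Hspa1 genes. The positions are chr13:5861239-5861488 (plus strand) for Klf6, chr12:85473640-85473889 (plus) for Fos, chr17:34972157-34972406 (minus) for Hspa1a and chr17:34959239-34959488 (minus) for Hspa1b.
Klf6: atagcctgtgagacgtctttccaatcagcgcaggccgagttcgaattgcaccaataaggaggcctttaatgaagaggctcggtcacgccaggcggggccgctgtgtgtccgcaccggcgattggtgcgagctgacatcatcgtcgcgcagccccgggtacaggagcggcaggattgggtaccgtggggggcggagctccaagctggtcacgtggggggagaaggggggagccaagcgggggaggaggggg
Fos: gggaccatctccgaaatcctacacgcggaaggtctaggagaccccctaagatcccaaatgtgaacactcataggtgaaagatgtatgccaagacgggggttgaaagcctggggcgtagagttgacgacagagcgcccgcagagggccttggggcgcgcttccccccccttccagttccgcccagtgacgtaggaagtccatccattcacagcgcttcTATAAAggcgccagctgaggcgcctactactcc
Hspa1a: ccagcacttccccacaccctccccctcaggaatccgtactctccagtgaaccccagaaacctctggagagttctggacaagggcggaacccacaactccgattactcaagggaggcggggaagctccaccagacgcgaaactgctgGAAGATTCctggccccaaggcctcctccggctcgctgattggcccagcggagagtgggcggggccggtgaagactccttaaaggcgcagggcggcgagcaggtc
Hspa1b: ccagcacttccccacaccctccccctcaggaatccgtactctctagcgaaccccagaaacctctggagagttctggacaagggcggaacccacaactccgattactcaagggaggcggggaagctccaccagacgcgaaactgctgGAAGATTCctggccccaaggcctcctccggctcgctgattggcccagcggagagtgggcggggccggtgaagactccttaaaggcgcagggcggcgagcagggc

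The Hspa1a and Hspa1b windows were identical at 247 of 250 bases (98.8%). These neighbouring genes encode nearly the same HSP70 protein, so the authors' counting could split or drop reads between them, and each of their levels is uncertain. Windows were listed for 31 of the 37 members, and not for Egr1, Egr3, Ier2, Hspa8, Hsp90aa1 and Hsp90ab1. The heat-shock element core, searched as GAANNTTC on both strands, lay in 6 of the 31 windows (Hspa1a, Hspa1b, Hspe1, Dnaja1, Jun and Fosl2) and in 6.69% of all 32851 promoter windows of this length. TATAAA, on both strands, lay in those of Fos, Btg1 and Nr4a2 and in 12.4% of all windows. The cyclic-AMP response element TGACGTCA lay in Dusp1 and Btg2 (1.55% of all windows), the AP-1 site TGANTCA in Hspa5 and Bag3 (6.75%), and a CArG box, the binding site of serum response factor, in Dusp5 and Zfp36 (1.47%). No member window held more than 1 kind of these motifs, and none of them lay in the Klf6 window. A match of letters is a description of the window, not a binding site.

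Per plate, 18 to 59 cells gave 2810321 to 10120557 UMIs; the median cell of all 555 had 143476 UMIs and 1578 genes. Median genes per cell ran from 705 to 2241 over plates, with Irf1_dXCR1 replicate 2 lowest. Irf1 itself stood at 98.2 to 337 CPM (UMIs per 1000000 after TMM scaling) in Irf1_dXCR1 plates and 200.5 to 435 CPM in Irf1_FF plates, and Ikbkb at 110.8 to 308.5 CPM in Ikbkb_dXCR1 plates and 291 CPM in the Ikbkb_FF plate. Reads come from the 5′ end, and such tags do not show whether the deletion took place. The 10 cDC1 markers summed to 3552 to 8113 CPM over the 14 plates, with none of them at 0 in any genotype. Sums of cell type markers, here and below, are CPM without TMM scaling. Other cells were also present, since macrophage markers reached 4643 CPM and fibroblast or endothelial markers 7051 CPM in single plates. Wells of all plates share the same 94 well barcodes by design, and 0 cell names occur in more than 1 plate.

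Members were found in very different shares of cells. A UMI of Hspa8, the constitutive HSP70 chaperone, was present in 95.3% of the 555 cells, and UMIs of Hsp90ab1, Hspa5 and Klf6 in 76.2%, 75.0% and 74.1%. Fos was found in 49.4% of cells, with a median of 187.5 UMIs where found. At the other end Egr3 had UMIs in 13 cells (2.34%), Dusp2 in 38, Egr2 in 43 and Fosl2 in 46. A UMI has 5 bases, so no count can exceed 1024 per gene and cell. The highest member count was 982, of Hspa8, near that ceiling. Hspa8 counts at or above the midpoint of the range were found in 176 cells, Klf6 counts in 36 and Hspa5 counts in 35, and levels in such cells are understated. For a rare member the plate value rests on few cells. In the median plate 1 cell supplied 55.4% of the Fosl2 UMIs and 86.1% of the Egr3 UMIs, against 13.8% for Fos and 6.06% for Hspa8.

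**Figure D1:**
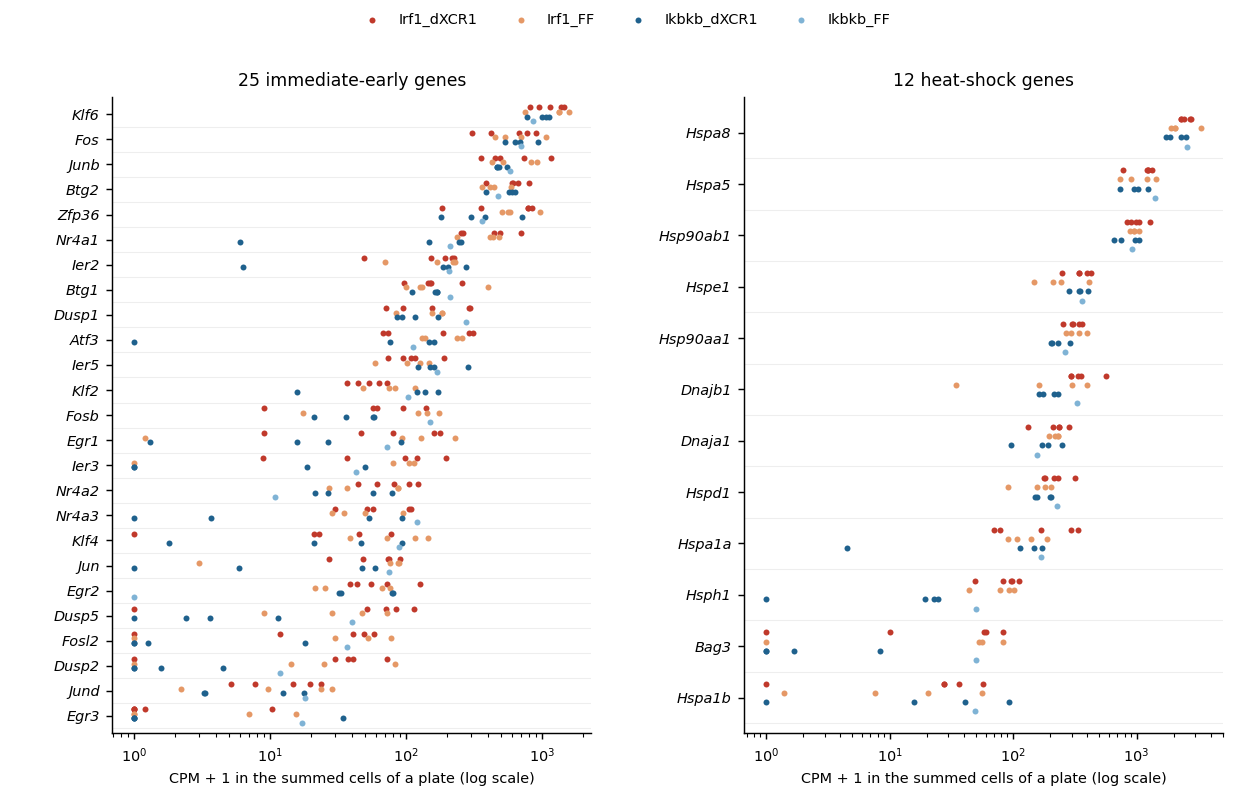
CPM + 1 on a log axis for each of the 25 immediate-early and 12 heat-shock genes, with 1 point per plate coloured by genotype and genes ordered by mean. Hspa8, Klf6, Hspa5 and Hsp90ab1 form tight rows, while Egr3, Dusp2, Fosl2, Bag3 and Ier3 include plates at 0 CPM and spread more widely.

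The AP-1 factors Fos and Junb and the RNA regulators Btg2 and Zfp36 had UMIs in every plate. Over the 14 plates Fos ran from 306 to 1073 CPM with a median of 685. In the same plates Jun, a dimer partner of Fos, ran from 0 to 88.9 CPM with a median of 65.7, and Fosb from 8.05 to 174 CPM. CPM here are not divided by gene length, and each value is compared across plates rather than between genes. Of the 37 members 13 had at least 1 plate without a UMI, and Egr3, an EGR factor, had none in 8 of 14 plates. The 25 immediate-early genes together made up 0.325 to 0.750% of scaled UMIs in Irf1_dXCR1 plates, 0.520 to 0.704% in Irf1_FF plates, 0.313 to 0.519% in Ikbkb_dXCR1 plates and 0.493% in the Ikbkb_FF plate. The 12 heat-shock genes made up 0.541 to 0.737%, 0.475 to 0.750%, 0.415 to 0.599% and 0.655% of scaled UMIs in those 4 genotypes.

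Plates of the same genotype differed far less in the abundant chaperones than in most immediate-early genes. The SD of log2(CPM + 1) between plates, pooled within genotypes, had a median of 1.34 over the 25 immediate-early genes and 0.41 over the 12 heat-shock genes, against 1.42 over all 16203 genes in the fit. The steadiest member was Hsp90aa1, the stress-inducible HSP90, with an SD of 0.22, which is a factor of 1.17. Ier3, an early gene that modulates survival signalling, had the widest spread at 2.66, and Egr1, Bag3, Hspa1b and Fosl2 had SDs of 2.48 to 2.62. Among the 20 members with a mean of 100 CPM or more the median SD was 0.53, and it was also 0.53 over all 2221 genes at that level. Of these members the 11 immediate-early genes had a median of 0.60 and the 9 heat-shock genes 0.38. The limit on UMIs per gene and cell compresses high counts such as those of Hspa8, and its part in these SDs was not tested. The set medians above are not adjusted for level, and no test was made of them. With log2(CPM + 10) the medians were 0.80 for immediate-early genes, 0.39 for heat-shock genes and 0.62 over all genes. With the level of each cell averaged on the log scale in place of summed UMIs, the order of the sets turned. Their medians were then 0.70 for immediate-early and 0.99 for heat-shock genes, against 0.24 over all genes.

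**Figure D2:**
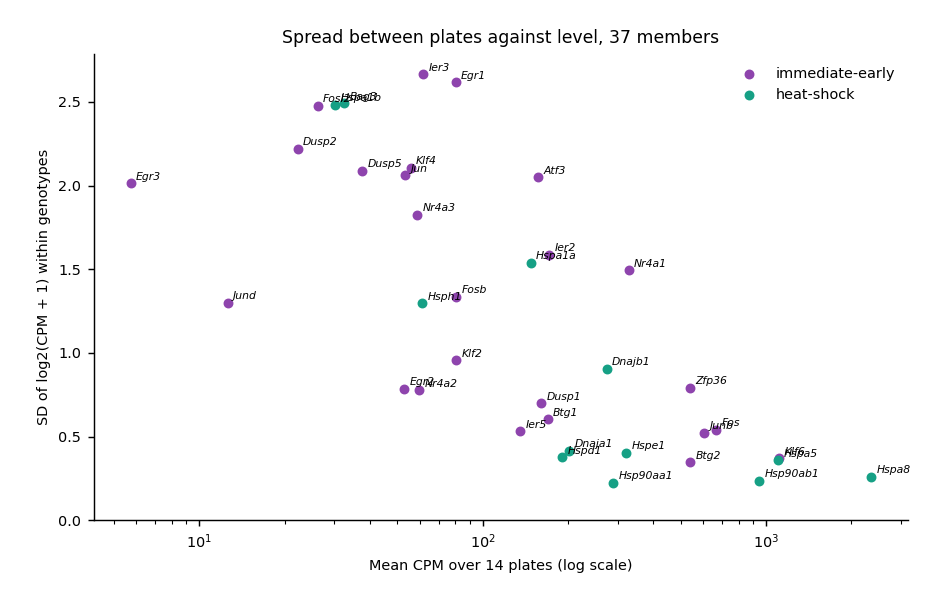
Pooled SD of log2(CPM + 1) between plates of the same genotype against mean CPM over 14 plates (log axis), 1 point per member. Spread is largest among members below 100 CPM and smallest for Hsp90aa1, Hsp90ab1 and Hspa8; Atf3, Hspa1a, Ier2 and Nr4a1 stand above other members of like level.

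The genes whose levels ran most alike Fos over the 14 plates were not members. Among 6448 kept genes with a mean of 20 CPM or more, the 5 nearest by Spearman's rho were Snhg8 (0.90), Rpl32 (0.89), Rock2 (0.87), Cdk4 (0.85) and Cops7a (0.85). Of the members whose likeness was looked up, Junb had a rho of 0.66 with Fos (rank 110), Hspa8 0.64 (rank 135), Fosb 0.57 (rank 233) and Jun 0.24 (rank 1962). For Hspa1a the nearest were B4gat1 (0.88), Flii (0.86), Hmgcs1 (0.85), Lhpp (0.84) and Dok1 (0.83), with its neighbour Hspa1b at 0.46 (rank 697). The points are 14 plates that share 4 genotypes, and differ in depth and in the kinds of cells they hold.

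No member passed the test between Irf1_dXCR1 and Irf1_FF plates. With edgeR's quasi-likelihood test over all cells, 0 of 37 members and 0 of 16203 genes (0%) had an adjusted p under 0.05, while 1272 genes and 0 members had an unadjusted p under 0.05; DESeq2 called 100 genes, 0 of them members. Of the members 19 were higher and 18 lower in Irf1_dXCR1 plates, with a median log2 fold change of 0.08 against 0.00 over all genes. A plate sums cells of several kinds, so fewer cells that carry a transcript and less of it per cell cannot be told apart here. Without Irf1_dXCR1 replicate 2, which has the fewest genes per cell, 10 of 37 members were lower, and with upper-quartile scaling 13 were.

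The immediate-early factors were spread widely within both Irf1 groups. Fos had 900.1, 306, 425, 774 and 685 CPM in Irf1_dXCR1 plates, against 698, 534, 450.2 and 1073 CPM in Irf1_FF plates, and the groups overlapped. Jun had 74.1, 88.9, 26.3, 47.3 and 73.0 CPM in Irf1_dXCR1 plates, against 86.0, 75.5, 2.00 and 88.7 CPM in Irf1_FF plates. Egr1, a zinc-finger factor of growth and antigen signals, had 161, 8.05, 78.8, 45.5 and 178 CPM in Irf1_dXCR1 plates, against 227, 93.5, 0.2 and 128 CPM in Irf1_FF plates. Irf1_FF replicate 3 was the lowest Irf1_FF plate in all 3 genes, while Irf1_dXCR1 replicate 2 was the lowest Irf1_dXCR1 plate in Fos and Egr1 and the highest in Jun. Of the 25 immediate-early genes 10 were higher and 15 lower in Irf1_dXCR1 plates, with a median log2 fold change of -0.04. The smallest p among all members belonged to Btg2, an antiproliferative regulator of mRNA decay. Its level was 616 ± 152 CPM in Irf1_dXCR1 plates (SD, n = 5) and 453 ± 97.0 CPM in Irf1_FF plates (n = 4), which is 0.44 ± 0.23 (SE) on the log2 scale (edgeR adjusted p = 0.519).

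Among the heat-shock genes 9 of 12 were higher in Irf1_dXCR1 plates, none past the threshold, with a median log2 fold change of 0.13. Hspa8 had 2737, 2273, 2418, 2725 and 2299.7 CPM in Irf1_dXCR1 plates, against 2057, 2061, 1894 and 3341 CPM in Irf1_FF plates. The highest and the lowest plates were both Irf1_FF plates. Hspa1a, the inducible HSP70, had 168, 68.7, 77.8, 295 and 333 CPM in Irf1_dXCR1 plates, against 188, 89.9, 139 and 108 CPM in Irf1_FF plates, so the Irf1_dXCR1 plates lay on both sides of the others. Dnajb1, an HSP40 co-chaperone that hands substrates to HSP70, had 336, 356, 565, 293 and 294 CPM in Irf1_dXCR1 plates, against 297, 33.5, 161 and 395 CPM in Irf1_FF plates (log2 fold change 0.73 ± 0.48, edgeR adjusted p = 0.719). Hspe1 and Hspd1, the partners of the mitochondrial chaperonin, averaged 351 ± 67.1 and 223 ± 55.8 CPM in Irf1_dXCR1 plates and 252 ± 113 and 157 ± 49.3 CPM in Irf1_FF plates. Their exons overlap on opposite strands, and where counting ignored strand their reads cannot be told apart; the setting is not given in the sources used here. The same holds for Jun with Junos, Junb with Prdx2, Dusp1 with Ergic1, Zfp36 with Gm44710 and Dnaja1 with Smu1 and Gm6297.

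Within single states the Irf1 groups gave no member call either. Cells were placed by transcripts: Ccr7+ (mature dendritic cells express this homing receptor), C1qa+ (a complement gene of macrophages) and Xcr1+ Ccr7- cells, each with at least 1 UMI of the first gene. Ccr7+ cells had no C1qa UMI, C1qa+ cells no Ccr7 UMI, and Xcr1+ Ccr7- cells no UMI of either. Xcr1 UMIs were present in 25 of the Ccr7+ and 8 of the C1qa+ cells. A further 187 cells had no UMI of any of the 3 genes and were in no state. In Xcr1+ Ccr7- cells (3 Irf1_dXCR1 and 4 Irf1_FF plates) edgeR called 0 of 37 members and 0 of 11868 genes (0%; 527 genes and 1 member at an unadjusted p under 0.05, 109 genes by DESeq2, 0 of them members). There 8 of 25 immediate-early genes and 9 of 12 heat-shock genes were higher in Irf1_dXCR1 plates. In Ccr7+ cells (5 Irf1_dXCR1 and 4 Irf1_FF plates) edgeR called 0 of 37 members and 0 of 11362 genes (0%; 1253 genes and 0 members at an unadjusted p under 0.05, 62 genes by DESeq2, 0 of them members). There 18 of 25 immediate-early and 8 of 12 heat-shock genes were higher, with a median log2 fold change of 0.49 over the members and 0 over all genes. With upper-quartile factors the median over all genes of that fit moved to 0.56 and that of the members to 1.81, with 4 of 37 lower in place of 11. Fos in Ccr7+ cells had 34.4, 205, 0, 499 and 383 CPM in Irf1_dXCR1 plates, against 541, 4.42, 284 and 59.9 CPM in Irf1_FF plates, with complete overlap.

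Ikbkb_dXCR1 plates could be set against 1 control plate alone. The fit lets that plate vary like the other groups. edgeR called 0 of 37 members and 0 of 16203 genes (0%), with 707 genes and 1 member at an unadjusted p under 0.05. Of 37 members 29 were lower in Ikbkb_dXCR1 plates, with a median log2 fold change of -0.41, against 0 over all genes. Over all genes 5152 (31.8%) were lower and 7713 higher, and the rest had no fitted difference, so these shares are not a plain background. DESeq2 called 1177 genes, 1 of them a member, Egr2, and limma-trend 203 genes and 0 members. Egr2, an EGR factor of lymphoid and myeloid activation, had 32.2, 79.6, 31.1 and 78.6 CPM in Ikbkb_dXCR1 plates and no UMI in the 34 cells of the Ikbkb_FF plate, which allows a share of up to 8.82% of cells with a detected UMI and does not limit the share that expresses the gene; Egr2 was detected in 7.75% of all cells. Fos had 536, 939.7, 686 and 639.8 CPM in Ikbkb_dXCR1 plates and 702 CPM in the Ikbkb_FF plate, which lay inside their range. Jun had 0, 58.4, 4.92 and 46.4 CPM in Ikbkb_dXCR1 plates against 74.3 CPM in the Ikbkb_FF plate, and Egr1 91.9, 14.7, 0.317 and 25.5 CPM against 71.9 CPM. Hspa8 had 1745, 2523, 1871 and 2288 CPM in Ikbkb_dXCR1 plates, all below the 2579 CPM of the Ikbkb_FF plate. Hspa1a had 3.54, 112, 146 and 171 CPM against 166 CPM, with replicate 1 far below the other Ikbkb_dXCR1 plates. Without Ikbkb_dXCR1 replicate 1, 23 of 37 members were lower. The Ikbkb effect minus the Irf1 effect was tested as a contrast added after seeing the data, and edgeR called 0 members and 0 of 16203 genes (0%; 543 genes and 1 member at an unadjusted p under 0.05).

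Most members were lower in Ikbkb_dXCR1 than in Irf1_dXCR1 plates, but none passed the test. Of 37 members 30 were lower, with a median log2 fold change of -0.42, while 55.9% of all genes were lower with a median of -0.17. edgeR called 0 members and 3 of 16203 genes (0.0185%), with 3 members (Dusp5, Hsph1 and Dusp2) and 1622 genes at an unadjusted p under 0.05, and DESeq2 called Dusp5 lower among 614 genes. An alternative added after seeing the data used 6-week mice alone, which keeps only replicates 3 and 4 of Ikbkb_dXCR1. There 28 of 37 members were lower with a median of -0.26, nearer to the -0.16 over all genes, and 0 genes were called. Fibroblast and endothelial markers (9 genes) moved with this comparison: they summed to 71.2 to 744 CPM in Ikbkb_dXCR1 plates, with Cdh5 at 0, and to 348 to 4473 CPM in Irf1_dXCR1 plates, with none at 0. B cell markers (4 genes) ran the other way without overlap, at 276 to 592 CPM in Ikbkb_dXCR1 and 89.2 to 174 CPM in Irf1_dXCR1 plates, with Cd79a and Ms4a1 at 0 in both. The part of either list in the result was not tested.

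Of the 12 heat-shock genes, Hsph1 and Dnajb1 had plates that did not overlap between the deleted genotypes, neither past the threshold. Hsph1, an HSP110 nucleotide exchange factor for HSP70, had 18.3, 23.5, 0 and 22.0 CPM in Ikbkb_dXCR1 plates, against 48.6, 81.5, 96.6, 111 and 95.9 CPM in Irf1_dXCR1 plates. No Ikbkb_dXCR1 plate reached the lowest Irf1_dXCR1 plate (log2 fold change -2.44 ± 1.02, edgeR adjusted p = 0.443). Dnajb1 had 175, 229.9, 213 and 160.1 CPM in Ikbkb_dXCR1 plates, against 293 to 565 CPM in Irf1_dXCR1 plates, again without overlap (log2 fold change -0.92 ± 0.49, edgeR adjusted p = 0.443). No other member had plates without overlap, and the same held for 163 of 16203 genes on the lower side (1.01%) and 92 on the higher side (0.568%), where no member stood. Bag3, a co-chaperone of HSP70 in selective autophagy, had 0, 7.34, 0 and 0.672 CPM in Ikbkb_dXCR1 plates, against 57.2, 0, 8.99, 82.0 and 59.1 CPM in Irf1_dXCR1 plates.

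Dusp5, Dusp2 and Nr4a1 had the smallest unadjusted p among the early genes. Dusp2 had 0.591, 0, 3.49 and 0 CPM in Ikbkb_dXCR1 plates, against 29.0, 0, 71.7, 39.9 and 36.6 CPM in Irf1_dXCR1 plates. Dusp5, a nuclear phosphatase of ERK, had 0, 2.64, 1.43 and 10.5 CPM in Ikbkb_dXCR1 plates, against 113, 0, 70.5, 83.2 and 51.1 CPM in Irf1_dXCR1 plates. Both overlapped through Irf1_dXCR1 replicate 2, the plate with the fewest genes per cell. Nr4a1, an orphan nuclear receptor induced by antigen and cytokine signals, had 5.02, 255, 146 and 244 CPM in Ikbkb_dXCR1 plates, against 442, 252, 262, 703 and 490.3 CPM in Irf1_dXCR1 plates (log2 fold change -1.40 ± 0.67, edgeR adjusted p = 0.443). Klf2 and Ier5 ran the other way, at 111 ± 67.5 and 179 ± 72.0 CPM in Ikbkb_dXCR1 plates (SD, n = 4) and 53.3 ± 14.3 and 116 ± 44.8 CPM in Irf1_dXCR1 plates (n = 5), with edgeR adjusted p of 0.463 and 0.589.

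**Figure D3:**
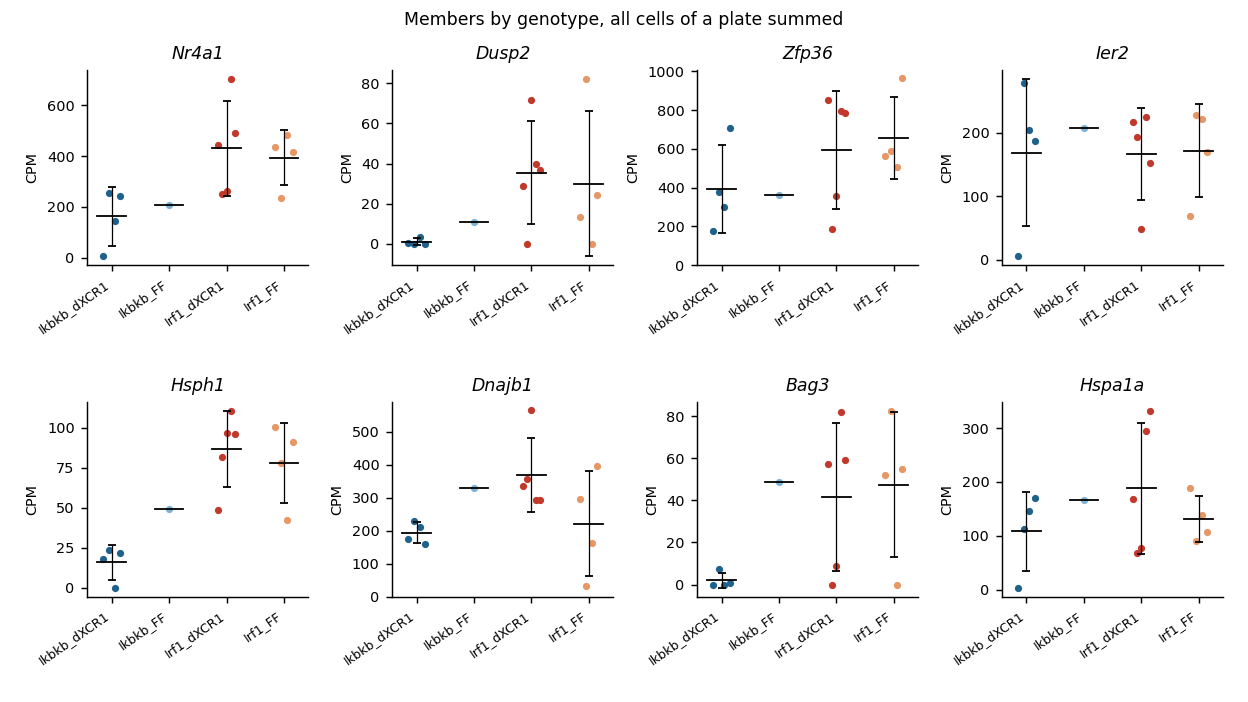
CPM of 8 members, chosen after their values were seen, in each plate by genotype, with a line at the mean and error bars for the SD (n = 4 Ikbkb_dXCR1, 1 Ikbkb_FF, 5 Irf1_dXCR1 and 4 Irf1_FF plates). Hsph1 and Dnajb1 in Ikbkb_dXCR1 plates lie below every Irf1_dXCR1 plate, while Zfp36, Ier2 and Hspa1a overlap.

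Of the pathway genes outside the members, none passed between genotypes over all cells. Of 40 other early response genes tested 17 were higher in Irf1_dXCR1 than Irf1_FF plates, 23 in Ikbkb_dXCR1 than Ikbkb_FF plates and 14 in Ikbkb_dXCR1 than Irf1_dXCR1 plates. Of 43 other heat-shock and chaperonin genes 23, 19 and 15 were higher in these 3 comparisons, of 25 genes of the unfolded protein response 10, 7 and 10, and of 23 genes of ERK, p38 and serum response factor signalling 11, 7 and 8. The most abundant were Id2, an inhibitor of basic helix-loop-helix factors needed for cDC1 development, at 2141 CPM in Ikbkb_dXCR1, 2280 CPM in Ikbkb_FF, 1707 CPM in Irf1_dXCR1 and 1779 CPM in Irf1_FF plates on average, and Nfkbia, the NF-κB inhibitor and target, at 706, 695, 1110 and 1379 CPM in the same order of genotypes.

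Ccr7+ and Xcr1+ Ccr7- cells of the same plate were compared next, and there 1 member was called. Of the plates, 10 had at least 5 cells of each (3 Irf1_dXCR1, 4 Irf1_FF, 2 Ikbkb_dXCR1 and 1 Ikbkb_FF; 131 Ccr7+ and 114 Xcr1+ Ccr7- cells), and plate was a block in the fit. Klf6 passed as higher, 0 members passed as lower, and 31 of the 37 members passed the filter on low counts. Over all 5531 genes tested 263 were called (4.76%), 180 higher (3.25%) and 83 lower (1.5%), so 1 call among 31 members is near the background. An unadjusted edgeR p under 0.05 was found for 10 of the 31 members and 884 of the 5531 genes, a larger share among the members. The members had a median log2 fold change of -0.39, and all genes -0.35. Ccr7+ cells were shallower, at 132930 UMIs and 1380.5 genes in the median cell over all plates, against 191318 UMIs and 2102 genes per Xcr1+ Ccr7- cell. The mean share of cells with a given mature marker was 51.8% and 8.32%, that with a given cDC1 marker 28.3% and 73.1%, and that with a given macrophage marker 5.84% and 11.3%, in Ccr7+ and in Xcr1+ Ccr7- cells. The part of depth and of these other markers in the member values was not tested.

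Klf6 encodes a zinc-finger factor that is induced early in myeloid cells. In Ccr7+ cells it ran from 807 to 2436 CPM with a median of 1927, against 479 to 1698 CPM with a median of 696 in Xcr1+ Ccr7- cells, over 10 plates. It was higher in Ccr7+ cells in 9 of 10 plates, and Irf1_FF replicate 1 went the other way, with 807 CPM in Ccr7+ and 944 CPM in Xcr1+ Ccr7- cells. The means were 1888 ± 487 CPM in Ccr7+ and 841 ± 403 CPM in Xcr1+ Ccr7- cells (SD, n = 10), which is 1.26 ± 0.20 (SE) on the log2 scale (edgeR adjusted p = 0.0017). With at least 10 cells per state the 4 plates left gave a log2 fold change of 1.20, which did not pass (edgeR adjusted p = 0.129, the highest over 17 alternatives). Klf6 was found in 87.0% of these Ccr7+ cells and in 80.7% of the Xcr1+ Ccr7- cells, at median depths of 131537 and 200901 UMIs. Over all plates, with each cell thinned to 50000 UMIs, the share was 93.4% of 122 Ccr7+ cells and 80.6% of 129 Xcr1+ Ccr7- cells, and unthinned it was 87.0% of 154 Ccr7+ cells and 78.0% of 141 Xcr1+ Ccr7- cells.

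Btg1, Nr4a3 and Dusp5 were higher in Ccr7+ cells without passing. Btg1, a relative of Btg2 that restrains proliferation, ran from 53.5 to 630.0 CPM with a median of 385 in Ccr7+ cells, against 47.6 to 465 CPM with a median of 98.8 in Xcr1+ Ccr7- cells, higher in 9 of 10 plates (log2 fold change 1.56 ± 0.43, edgeR adjusted p = 0.0555). Nr4a3, an orphan nuclear receptor known in migratory dendritic cells of mice, ran from 49.6 to 702 CPM with a median of 135 in Ccr7+ cells, against 0 to 98.9 CPM with a median of 39.1 in Xcr1+ Ccr7- cells. It was the one member of 31 higher in all 10 plates, as were 170 of 5531 genes (3.07%), with edgeR adjusted p = 0.304. Dusp5 ran from 0 to 211 CPM with a median of 108 in Ccr7+ cells, against 0 to 116 CPM with a median of 0.351 in Xcr1+ Ccr7- cells, higher in 8 of 10 plates (edgeR adjusted p = 0.115). DESeq2 called all 3, together with Klf6 and Hspa8, as higher.

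Fos stood on the other side. It ran from 4.42 to 541 CPM with a median of 335 in Ccr7+ cells, against 452 to 1275 CPM with a median of 766 in Xcr1+ Ccr7- cells. Every one of the 10 plates had less Fos in its Ccr7+ cells, from both experiments, and Fos was the one member of 31 for which that held, as it did for 127 of 5531 genes (2.3%). The means were 294 ± 197 and 777 ± 254 CPM, a log2 fold change of -1.88 ± 0.59, which did not pass with edgeR (adjusted p = 0.0996; 0.00455 to 0.385 over 17 alternatives, with calls by DESeq2 and with a gate of 10 UMIs). A Fos UMI was found in 32 of 131 Ccr7+ cells (24.4%) and in 85 of 114 Xcr1+ Ccr7- cells (74.6%). Per plate that share ran from 6.67 to 66.7% with a median of 24.0% in Ccr7+ cells, and from 50 to 87.5% with a median of 74.8% in Xcr1+ Ccr7- cells. With each cell thinned to 50000 UMIs, which left out 32 of 154 Ccr7+ and 12 of 141 Xcr1+ Ccr7- cells over all plates, the share was 21.3% and 73.6%, against 24.0% and 73.0% unthinned. Fosb, its close relative, ran from 0 to 225 CPM with a median of 2.19 in Ccr7+ cells and from 19.0 to 276 CPM with a median of 81.8 in Xcr1+ Ccr7- cells, lower in 8 of 10 plates (edgeR adjusted p = 0.269).

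The remaining AP-1 and EGR factors gave no such split. Jun ran from 0 to 243 CPM with a median of 18.1 in Ccr7+ cells, against 0 to 54.3 CPM with a median of 2.53 in Xcr1+ Ccr7- cells, higher in 5 plates and lower in 5. Egr1 ran from 0 to 126 CPM in Ccr7+ cells and from 0 to 84.6 CPM in Xcr1+ Ccr7- cells, with medians of 0 and 24.8 CPM. Junb averaged 685 ± 346 and 570 ± 218 CPM and Zfp36 660 ± 330.2 and 613 ± 266 CPM in Ccr7+ and in Xcr1+ Ccr7- cells, higher in 6 of 10 plates each. Klf2, a quiescence and trafficking factor, was at 0 to 98.0 CPM in Ccr7+ cells and 3.26 to 218 CPM in Xcr1+ Ccr7- cells, lower in 9 of 10 plates (edgeR adjusted p = 0.311). Its relative Klf4 averaged 11.1 ± 23.7 and 32.1 ± 33.8 CPM, and the AP-1 factor Jund 9.88 ± 12.8 and 8.37 ± 8.58 CPM, in Ccr7+ and in Xcr1+ Ccr7- cells.

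**Figure D4:**
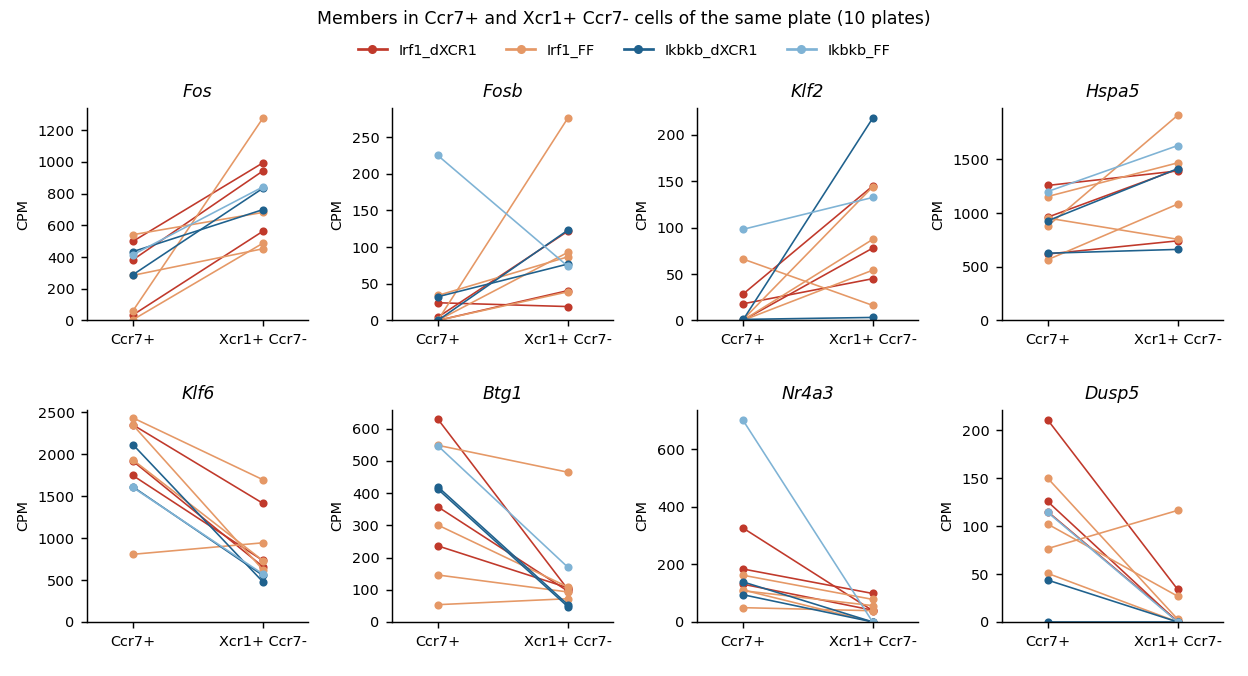
CPM of 8 members, chosen after their values were seen, in Ccr7+ cells (left) and Xcr1+ Ccr7- cells (right), with a line for each of 10 plates coloured by genotype. All 10 Fos lines rise to the right, 9 of 10 Klf6 lines fall to the right.

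No heat-shock gene passed the edgeR test between these cells, while DESeq2 called Hspa1a, Hspa1b and Hspa5 lower and Hspa8 higher in Ccr7+ cells, and edgeR with a gate of 10 UMIs called Hspa5 lower. Of the 11 that passed the filter 4 were higher and 7 lower in Ccr7+ cells, 0 past the threshold, with a median log2 fold change of -0.39. Hspa8 ran from 2203 to 4763 CPM with a median of 2597 in Ccr7+ cells, against 1282 to 3514 CPM with a median of 2576 in Xcr1+ Ccr7- cells, higher in 7 of 10 plates (log2 fold change 0.32 ± 0.14, edgeR adjusted p = 0.285). Hspa5, the HSP70 of the endoplasmic reticulum, averaged 914 ± 248 CPM in Ccr7+ cells and 1246 ± 418 CPM in Xcr1+ Ccr7- cells, lower in 9 of 10 plates (log2 fold change -0.39 ± 0.14, edgeR adjusted p = 0.158). Hspe1 was likewise lower in 9 of 10 plates, at 286 ± 139 CPM in Ccr7+ and 399 ± 114 CPM in Xcr1+ Ccr7- cells (edgeR adjusted p = 0.384). Hspa1b, Hspd1 and Dnaja1 were lower in 8 of 10 plates, and Bag3 was lower in 7 and higher in 0. Hspa1a ran from 1.98 to 419.8 CPM with a median of 37.3 in Ccr7+ cells, against 82.1 to 290.1 CPM with a median of 187 in Xcr1+ Ccr7- cells, lower in 7 of 10 plates (edgeR adjusted p = 0.226). Dnajb1 ran from 0 to 515 CPM with a median of 194 in Ccr7+ cells and from 0 to 516 CPM with a median of 204 in Xcr1+ Ccr7- cells, so the ranges coincide.

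Several pathway genes outside the members did pass between these cells. Of 21 other early response genes tested 5 rose in Ccr7+ cells and 0 fell, with a median log2 fold change of 1.38. They were Nfkbia (1.62 ± 0.16, edgeR adjusted p = 5.1e-05), Ppp1r15a, a phosphatase subunit of the stress response (2.27 ± 0.29, adjusted p = 3.4e-04), Gadd45b, a growth arrest gene (8.52 ± 1.27, adjusted p = 0.00117), the transcriptional repressor Bhlhe40 (3.68 ± 0.68, adjusted p = 0.0055) and Rel, the NF-κB subunit c-Rel, which is named after its value was seen (2.00 ± 0.38, adjusted p = 0.00628). Several plates had no Gadd45b UMI in Xcr1+ Ccr7- cells, so the size of its fitted change depends on the small prior count of the fit. Of 31 other heat-shock and chaperonin genes 1 fell, Cct8, a subunit of the cytosolic chaperonin (-1.21 ± 0.32, edgeR adjusted p = 0.0448). Of 20 genes of the unfolded protein response 2 fell, the disulfide isomerases Pdia3 (-1.02 ± 0.18, edgeR adjusted p = 0.00433) and Pdia6 (-1.51 ± 0.31, adjusted p = 0.01). Of 13 genes of ERK, p38 and serum response factor signalling 1 rose, the cyclic-AMP modulator Crem (1.30 ± 0.35, edgeR adjusted p = 0.0454).

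C1qa+ cells could be set against the others in 4 plates (1 Irf1_dXCR1, 2 Irf1_FF and 1 Ikbkb_dXCR1; 41 C1qa+, 58 Ccr7+ and 40 Xcr1+ Ccr7- cells). These 4 plates are the same in both comparisons, which share the C1qa+ cells. Over all plates C1qa+ cells had a median of 143476 UMIs and 1577 genes, and a given macrophage marker was found in 51.1% of them on average, a cDC1 marker in 24.6% and a mature marker in 13.1%. Against Ccr7+ cells edgeR called 0 of 30 members tested and 22 of 5148 genes (0.427%; 3 higher, 0.0583%, and 19 lower, 0.369%), with 6 members and 460 genes at an unadjusted p under 0.05, while DESeq2 called 989 genes, 10 of them members. Against Xcr1+ Ccr7- cells it called 0 of 34 members and 1 of 5789 genes (0.0173%), with 2 members and 265 genes at an unadjusted p under 0.05, while DESeq2 called 681 genes and 4 members (Egr1, Fos, Hspa8 and Jun, all higher).

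The AP-1 genes Fos, Fosb, Jun and Atf3 and the EGR gene Egr1 were higher in C1qa+ than in Ccr7+ cells of all 4 plates, none past the threshold of edgeR. Their relatives did not all do so: Junb and Jund were higher in 3 plates and lower in 1, Fosl2 higher in 2 and lower in 0, Egr2 higher in 2 and lower in 1, and Egr3 higher in 0 and lower in 1. Fos had 1583, 975, 1494 and 696 CPM in C1qa+ cells, against 34.4, 4.42, 59.9 and 434 CPM in Ccr7+ cells, in the order Irf1_dXCR1 replicate 1, Irf1_FF replicates 2 and 4 and Ikbkb_dXCR1 replicate 4. The ranges did not overlap (log2 fold change 4.88 ± 1.24, edgeR adjusted p = 0.254). Over 11 alternatives the adjusted p of Fos ran from 1.3e-08 with DESeq2 to 0.577, with 4 calls, among them that without Ikbkb_dXCR1 replicate 4. A Fos UMI was found in 27 of 41 C1qa+ cells (65.9%) and in 11 of 58 Ccr7+ cells (19.0%). Egr1 had 393, 136, 114 and 97.2 CPM in C1qa+ cells and no UMI in Ccr7+ cells of these plates. It was found in 10 of 41 C1qa+ cells (24.4%) and in 0 of 58 Ccr7+ cells, which allows a share of up to 5.17% of cells with a detected UMI, by counting error alone, and does not limit the share that expresses Egr1, at median depths of 124079 and 118806 UMIs. Atf3, a stress-induced AP-1 partner, had 572, 542, 178 and 299 CPM in C1qa+ cells, against 97.4, 0, 1.15 and 99.3 CPM in Ccr7+ cells (edgeR adjusted p = 0.550). Fosb averaged 218 ± 135 and 8.08 ± 16.2 CPM in C1qa+ and in Ccr7+ cells. The 7 members Fos, Fosb, Jun, Egr1, Atf3, Klf2 and Hspa5 were higher in all 4 plates, as were 462 of 5148 genes (8.97%).

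Klf6, Nr4a3, Hspa8 and Hspe1 were lower in C1qa+ than in Ccr7+ cells in all 4 plates, as were 719 of 5148 genes (14%). That is 4 of the 30 members tested, near the share over all genes. Klf6 had 1123, 883, 1147 and 880.1 CPM in C1qa+ cells, against 1919.7, 2351, 2436 and 2117 CPM in Ccr7+ cells, with no overlap (log2 fold change -1.09 ± 0.22, edgeR adjusted p = 0.148). Nr4a3 averaged 24.0 ± 37.3 and 123 ± 61.8 CPM, and Hspe1 168 ± 154 and 281 ± 155 CPM, in C1qa+ and in Ccr7+ cells. Hspa8 had 2834, 1975, 3408 and 2179 CPM in C1qa+ cells, against 3034, 2452, 4763 and 3324 CPM in Ccr7+ cells (log2 fold change -0.33 ± 0.16, edgeR adjusted p = 0.635). Hspa1a had 329, 121, 106 and 190.3 CPM in C1qa+ cells, against 7.72, 9.32, 28.8 and 227 CPM in Ccr7+ cells, and Dnajb1 477, 5.95, 525 and 171 CPM against 159.7, 35.8, 78.4 and 171 CPM, with overlap in both. Without Irf1_dXCR1 replicate 1, the median log2 fold change over the members was 0.06, with 14 of 30 lower, in place of 0.88, with 10 of 30 lower. The median over all genes was -0.38 in that fit, in place of -0.16. Outside the members Id2 fell in C1qa+ cells (-1.52 ± 0.20, edgeR adjusted p = 0.0372), 1 of 22 other early response genes tested.

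**Figure D5:**
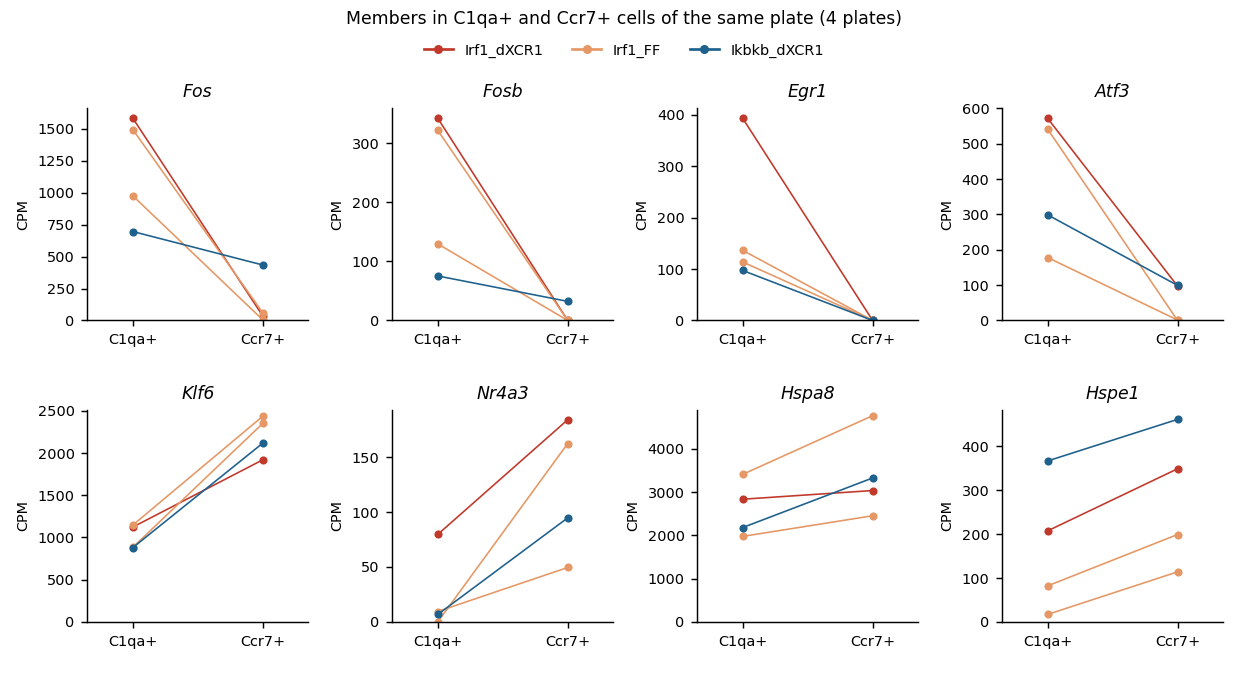
CPM of 8 members, chosen after their values were seen, in C1qa+ cells (left) and Ccr7+ cells (right), with a line for each of 4 plates coloured by genotype. Fos, Fosb, Egr1 and Atf3 are higher in C1qa+ cells of all 4 plates, and Klf6, Nr4a3, Hspa8 and Hspe1 lower.

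Jun and Egr1 were among the members higher in C1qa+ than in Xcr1+ Ccr7- cells of all 4 plates, neither past the threshold of edgeR. Jun had 102, 192, 41.7 and 207 CPM in C1qa+ cells, against 0, 0, 0.793 and 0 CPM in Xcr1+ Ccr7- cells (edgeR adjusted p = 0.767), with UMIs in 13 of 41 and in 1 of 40 cells. Over all plates a Jun UMI was found in 24.6% of 57 C1qa+ and in 10.6% of 141 Xcr1+ Ccr7- cells. Egr1 had 393, 136, 114 and 97.2 CPM in C1qa+ cells, against 0, 0, 30.5 and 19.1 CPM in Xcr1+ Ccr7- cells (edgeR adjusted p = 1). Jun, Egr1 and Btg1, 3 of 34 members tested, were higher in all 4 plates, as were 306 of 5789 genes (5.29%). Ier5 and Hspd1, 2 of 34, were lower in all 4, as were 710 genes (12.3%), a larger share than among the members. Of 23 immediate-early genes tested 17 were higher, with a median log2 fold change of 0.74, and of 11 heat-shock genes 5 were higher, with a median of -0.00, against -0.42 over all genes. Without Irf1_dXCR1 replicate 1 the median over the members was -0.24, with 20 of 34 lower in place of 12. The median over all genes of that fit fell as well, to -0.74, so the members stayed above it. Fos averaged 1187 ± 423 CPM in C1qa+ cells and 756 ± 357 CPM in Xcr1+ Ccr7- cells of these plates (SD, n = 4), higher in 3 of 4.

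The shares of all UMIs that the sets took differed less between states than single members did. Immediate-early genes made up 0.739 ± 0.325% of scaled UMIs in C1qa+ cells (SD, n = 4 plates), 0.584 ± 0.120% in Ccr7+ cells (n = 12) and 0.502 ± 0.123% in Xcr1+ Ccr7- cells (n = 12). Heat-shock genes made up 0.622 ± 0.125%, 0.611 ± 0.121% and 0.627 ± 0.168% of scaled UMIs in those 3 states. The mean log2(CPM + 1) over the immediate-early genes was 5.95 ± 1.53, 5.01 ± 1.04 and 5.28 ± 0.78 in the same states. For heat-shock genes it was 7.08 ± 0.68, 6.83 ± 0.88 and 7.29 ± 1.10. The order of Ccr7+ and Xcr1+ Ccr7- cells for immediate-early genes thus depended on the measure. The plates differ between the states, and no test was made of the sets.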

How the data were processed

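Single cells were sorted into 96-well plates and read as 5′ tags with a 5-base UMI, per the labels' protocols. Per the submitters' processing notes, bcl2fastq, STAR 2.5.3a, HTSeq 0.9.1 and GRCm38 were used; no source used here gives their roles, the strand setting or the annotation. The deposited table holds UMI counts per gene and cell, not normalized, and the count sums of all 555 cells equalled the totals in the authors' cell table, from which plate and genotype were taken. That table also gives, as computed by the authors, the fraction of each cell's UMIs in mitochondrial genes and spike-ins, used only to describe depth and quality. The design text says that no replicates were included; plates of 1 genotype, each 1 tumour of 1 mouse, are treated here as replicates, numbered in accession order.

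The 37 members and the other gene lists were chosen with earlier results of these data known. All 37 members are named; values in every plate (lowest, median and highest for more than 5 plates) are given for those with a call and for Fos, Jun, Egr1, Hspa1a, Hspa8 and Dnajb1, and other values were chosen after they were seen. From each other list, up to 4 genes with the smallest adjusted p under 0.05 are named, or else the 2 most abundant, and the 5 genes most like Fos and Hspa1a.

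Counts were summed per plate, or per plate and state (plates with at least 5 cells of it), filtered with filterByExpr, scaled with TMM and tested with edgeR 4.0.16 (quasi-likelihood; R 4.3.3) with Benjamini-Hochberg adjustment over all genes tested. Genotypes were fitted over all 14 plates; states with plate as a block, since both come from the same tumour. States excluded 16 cells with both Ccr7 and C1qa UMIs. Standard errors come from the fold change and its F value. Alternatives were DESeq2 1.42.0, limma-trend 3.58.1, other scaling, filters, gates and cell minimums, and each plate left out. Limits on shares at 0 use 3 counts and, like all counting error here, leave out variation between mice. Doublets were not called, and staining values of the cell table were not used.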

Additional observations from a re-analysis of the deposited data

Results flagged for a closer look

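Among 111 sets of plates (37 members in the 3 genotypes with 4 or 5 plates), 11 had 1 plate far from the rest, by a rule (Dixon's gap). For normally distributed values chance alone meets this rule in about 1 in 20 sets. CPM of rare members are not so distributed: where the other plates are near 0, a single plate with UMIs meets the rule readily. The count of 11 is therefore not set against that rate. Of the immediate-early genes, Fosl2 had 17.1 CPM in Ikbkb_dXCR1 replicate 1 and 0 to 0.269 CPM in the other Ikbkb_dXCR1 plates. Egr3 had 33.7 CPM in Ikbkb_dXCR1 replicate 4, with none in the others, and 9.37 CPM in Irf1_dXCR1 replicate 4, with at most 0.203 CPM in the others. Dusp2 had 3.49 CPM in Ikbkb_dXCR1 replicate 3 and at most 0.591 CPM in the others. Jun had 2.00 CPM in Irf1_FF replicate 3, against 75.5 to 88.7 CPM in the other Irf1_FF plates. Btg1 was high in that same plate, at 399 CPM against 99.9 to 131 CPM, and low in Ikbkb_dXCR1 replicate 1, at 111 CPM against 163 to 167 CPM.

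Of the heat-shock genes, Hspa5 had 769 CPM in Irf1_dXCR1 replicate 2, the plate with the fewest genes per cell, against 1207 to 1321 CPM in the other Irf1_dXCR1 plates. Hspa8 had 3341 CPM in Irf1_FF replicate 4, against 1894 to 2061 CPM in the others. Dnajb1 had 565 CPM in Irf1_dXCR1 replicate 3, against 293 to 356 CPM in the others. Bag3 had 7.34 CPM in Ikbkb_dXCR1 replicate 2 and at most 0.672 CPM in the others.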

How the results depend on the processing

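Among repeats of the counts of calls under the alternatives, 161 stayed within 1.5 times and 59 moved; Klf6 kept its call in 16 of 17 repeats and lost it with 10 cells per plate (log2 fold change 1.20, edgeR adjusted p = 0.129). DESeq2 called 100 genes for Irf1_dXCR1 against Irf1_FF (109 in Xcr1+ Ccr7- and 62 in Ccr7+ cells), 1177 genes and 1 member (Egr2) for Ikbkb_dXCR1 against Ikbkb_FF, 614 genes and 1 member (Dusp5) for Ikbkb_dXCR1 against Irf1_dXCR1, 1488 genes and 11 members for Ccr7+ against Xcr1+ Ccr7- cells, 681 and 4 for C1qa+ against Xcr1+ Ccr7- cells, and 989 and 10 for C1qa+ against Ccr7+ cells. The cause was not tested. limma-trend called 203 genes for Ikbkb_dXCR1 against Ikbkb_FF.

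For Ikbkb_dXCR1 against Irf1_dXCR1 (3 genes), limma-trend, the compared plates alone and 6-week mice gave 0 genes, upper-quartile scaling and leaving out cells under 500 genes gave 1, and leaving out single plates gave 0 to 4. Within Irf1 plates, Ccr7+ cells gave 97 genes with upper-quartile scaling, 7 with no filter, 2 with 10 cells per plate and 0 to 7 with single plates left out; Xcr1+ Ccr7- cells gave 0 to 1.

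Ccr7+ against Xcr1+ Ccr7- cells (263 genes, 1 member) gave 450 genes and 6 members with a gate of 10 UMIs (Btg1, Dusp5 and Klf6 higher; Fos, Fosb and Hspa5 lower), 2 members with overlapping gates (Btg1 and Klf6), and 76 genes and 0 members with 10 cells per plate. Leaving out single plates gave 1 to 2 members, Btg1 joining without Irf1_FF replicate 1. C1qa+ against Xcr1+ Ccr7- cells (1 gene) gave 128 genes with no filter, 2 with upper-quartile scaling, 0 with overlapping gates and 2 to 12 with single plates left out (12 without Irf1_FF replicate 4); 10 cells per plate left no plate and so no value. C1qa+ against Ccr7+ cells (22 genes, 0 members) gave 229 genes and 3 members with no filter (Egr1, Fos and Klf6), 1 member (Fos) with 10 UMIs, and 0 genes with overlapping gates or 10 cells per plate. Leaving out single plates gave 6 to 22 genes and 0 to 1 members, Fos joining without Ikbkb_dXCR1 replicate 4. Causes were not tested.

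With no replicate block, plates unpaired, C1qa+ cells gave 6 genes against Xcr1+ Ccr7- cells, and 60 genes and 2 members (Egr1 and Klf6) against Ccr7+ cells; Klf6 kept its call between Ccr7+ and Xcr1+ Ccr7- cells. Between genotypes no paired analysis was possible, because the labels give no replicate numbers that tie plates of different genotypes together. The main limits are 18 to 59 cells per plate, 1 Ikbkb_FF plate, and members carried by few cells.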
